A study of Homo sapiens with 1 sample.

Results

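The seed family of miR-25, miR-32, miR-92, miR-363 and miR-367 was examined in DLD-1, an established human colorectal carcinoma cell line that had received a non-targeting siRNA (si-NC). The members were the 6 mature microRNAs (miRNAs) hsa-miR-25-3p, hsa-miR-32-5p, hsa-miR-92a-3p, hsa-miR-92b-3p, hsa-miR-363-3p and hsa-miR-367-3p (written without hsa- from here on), chosen by name among the 2549 human miRNAs of 1 single-colour Agilent array. The wider study concerned circLONP2, a circular RNA of the LONP2 gene, and its link to miRNAs. The si-NC culture was the control for its knockdown, and no knockdown array was analysed here. With n = 1 array there was no comparison between groups, no p-value and no biological replicate, so every error below is technical, from replicate spots or from the scanner software.

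A miRNA guides Argonaute proteins to messenger RNAs chiefly through its seed, bases 2 to 8 counted from its 5′ end, and miRNAs with the same seed are grouped into a family because they can pair with the same sites. This family is spread over several loci. miR-92a is encoded in the cluster that starts with miR-17 in the host gene MIR17HG, and again in its X-linked paralog, the MIR106AHG cluster, which also encodes miR-363. miR-25 belongs to the miR-106b-25 cluster, a further paralog, and miR-367 to the MIR302CHG cluster, which is typical of pluripotent cells and also encodes the miR-302 miRNAs. miR-32 and miR-92b are encoded outside these clusters. The family is known for repressing BCL2L11, which encodes the pro-apoptotic protein BIM, and the MIR17HG cluster is known as oncogenic and induced by MYC. A hairpin precursor has a 5p and a 3p arm, and either can become a mature miRNA.

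The mature sequences of the 6 members, from RefSeq on GRCh38.p14, are shown first, because they define the family and because their 3′ parts set members apart. Capitals mark the seed.
miR-25-3p: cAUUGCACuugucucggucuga
miR-92a-3p: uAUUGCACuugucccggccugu
miR-92b-3p: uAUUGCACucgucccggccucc
miR-32-5p: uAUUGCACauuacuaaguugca
miR-363-3p: aAUUGCACgguauccaucugua
miR-367-3p: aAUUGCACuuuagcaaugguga

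All 6 were 22 bases long. Of the 2248 miRNAs on the array with a RefSeq mature sequence (88.2%), 6 carried this seed at bases 2 to 8, so no further member was found, and the count was also 6 with bases 2 to 7. miR-301a-5p held the same 7 letters at another position. Beyond the seed, miR-25-3p and miR-92a-3p differed at 4 of 22 positions and shared an unbroken run from base 2 to base 13. miR-92a-3p and miR-92b-3p differed at 3 positions, and miR-25-3p and miR-92b-3p at 6. In contrast, miR-32-5p differed from each other member at 9 or 11 positions. miR-363-3p differed from miR-25-3p, miR-92a-3p and miR-92b-3p at 13, 12 and 12 positions. For miR-367-3p these counts were 10, 10 and 12. miR-363-3p and miR-367-3p differed from each other at 8. No miRNA outside the family came closer to a member than 8 edits (substitutions, insertions or deletions). Edits allow gaps, so they cannot be set against the counts of differing positions above. The content of G and C was 63.6% in miR-92b-3p, 54.5% in miR-92a-3p, 50% in miR-25-3p, 40.9% in miR-363-3p, 36.4% in miR-367-3p and 31.8% in miR-32-5p.

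The mature members lie at chr7:100093571-100093592 (minus strand) for miR-25-3p, chr9:109046272-109046293 (minus) for miR-32-5p, chr1:155195237-155195258 (plus) for miR-92b-3p, chrX:134169382-134169403 (minus) for miR-363-3p and chr4:112647877-112647898 (minus) for miR-367-3p. miR-92a-3p has 2 sources, chr13:91351361-91351382 (plus) and chrX:134169544-134169565 (minus). By the RefSeq gene bounds, the miR-25 hairpin lies within MCM7, which encodes a subunit of the replicative helicase, and the miR-32 hairpin within TMEM245, each on the strand of that gene. The miR-92b hairpin lies within the non-coding gene THBS3-AS1, miR-92a-1 within MIR17HG, and miR-92a-2 and miR-363 within MIR106AHG. The miR-367 hairpin lies within MIR302CHG on the same strand and within LARP7 on the opposite strand. Whether a hairpin is exonic or intronic was not read here.

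The array held 50980 miRNA spots, none of them saturated, and 1000 negative control spots, whose 99th percentile was 16.1 in background-subtracted signal (scanner units, used for all spot signals below). All 7 colon epithelium markers examined, among them miR-192-5p, miR-200c-3p and miR-141-3p, were called detected, with total gene signals from 319 to 9249, where 44.4% of all miRNAs were called detected. Markers of other cells were called detected for 3 of 4 in blood (at most 695), 1 of 5 in stroma, muscle and vessel (123), 0 of 2 in liver and neural tissue and 3 of 6 in pluripotent cells (miR-371a-3p, miR-372-3p and miR-373-3p, at most 35.0). Each member had 20 spots, from 2 probes of 10 spots or 4 probes of 5 spots, so 16 probes and 120 spots in all. The total gene signal of the software sums the probes that exceed 3 times their error, and each total probe signal equalled 0.0183 times the number of spots times their mean signal, so it can be compared between probes of 1 miRNA. Signals of different miRNAs were not compared as abundance, because probes differ in how they bind.

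Of the 6 members, 4 were called detected by the scanner software, against 44.4% of all 2549 miRNAs of the array. miR-25-3p, miR-92a-3p and miR-32-5p had all 20 spots well above background, miR-92b-3p had 5 of 20, and miR-363-3p and miR-367-3p had none. By the rule that 1 probe has 50% or more of its spots well above background the count was also 4, against 37.9% of all miRNAs. In total, 65 of the 120 member spots were well above background. The share of all miRNA spots of the array that were so called was not computed, and the percentages above are shares of miRNAs.

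miR-25-3p, from the miR-106b-25 cluster, had spot signals from 3290 to 4778 with a median of 4067. Its total gene signal was 1485 ± 106.1 (software error), and no spot was flagged as an outlier. The dimmest of its spots lay far above the negative control level of 16.1.

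miR-92a-3p, the member shared by the MIR17HG and MIR106AHG clusters, had spot signals from 2038 to 2947 with a median of 2491. Its total gene signal was 913 ± 65.1. As for miR-25-3p, the weaker of its 2 probes still exceeded the negative control level more than 100-fold, at 135-fold.

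miR-32-5p, from the TMEM245 locus, had spot signals from 41.3 to 969 with a median of 790. Its total gene signal was 231 ± 13.2, which was 17.5 times its error. The wide range came from the probes and not from the spots of a probe, as described below.

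miR-92b-3p was called detected at a total gene signal of 1.38 ± 0.276, which was 4.99 times its error. Its spots ran from -0.0523 to 18.2 with a median of 6.64. This signal rested on 1 probe of 4, whose 5 spots lay between 14.5 and 18.2, the highest being flagged as an outlier. Without that spot the probe had a mean of 15.1 ± 0.498 (SD, 4 spots), below the 99th percentile of negative control spots. The other 3 probes had means of 4.22, 5.65 and 6.44, and their signals reached 1.59, 2.11 and 2.38 times their errors. Accordingly, miR-92b-3p was not detected when the brightest probe had to exceed the negative control percentile, when every probe had to be above background, or when a total gene signal of 5 was required. Those rules left 3 of 6 members, against 34.8%, 29.4% and 33.3% of all miRNAs. miR-92a-3p, which is 3 positions away in sequence, gave a strong signal on the same array, and the part of cross-binding in the miR-92b-3p signal was not tested.

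miR-363-3p, from the MIR106AHG cluster, had spots from -3.40 to 1.66 with a median of -1.50, and 17 of 20 were below 0. The total signals of its 2 probes were -0.232 and -0.254, each with an error of 0.478. A total probe signal of 1.43 would have been needed for a detection call at 3 times that error.

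miR-367-3p, from the MIR302CHG cluster, had spots from -0.774 to 4.23 with a median of 1.40, of which 3 were below 0. Its probes gave total signals of 0.258 ± 0.479 and 0.162 ± 0.478. Both members were therefore not detectable at this signal over background, which does not show that they are absent.

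**Figure D1:**
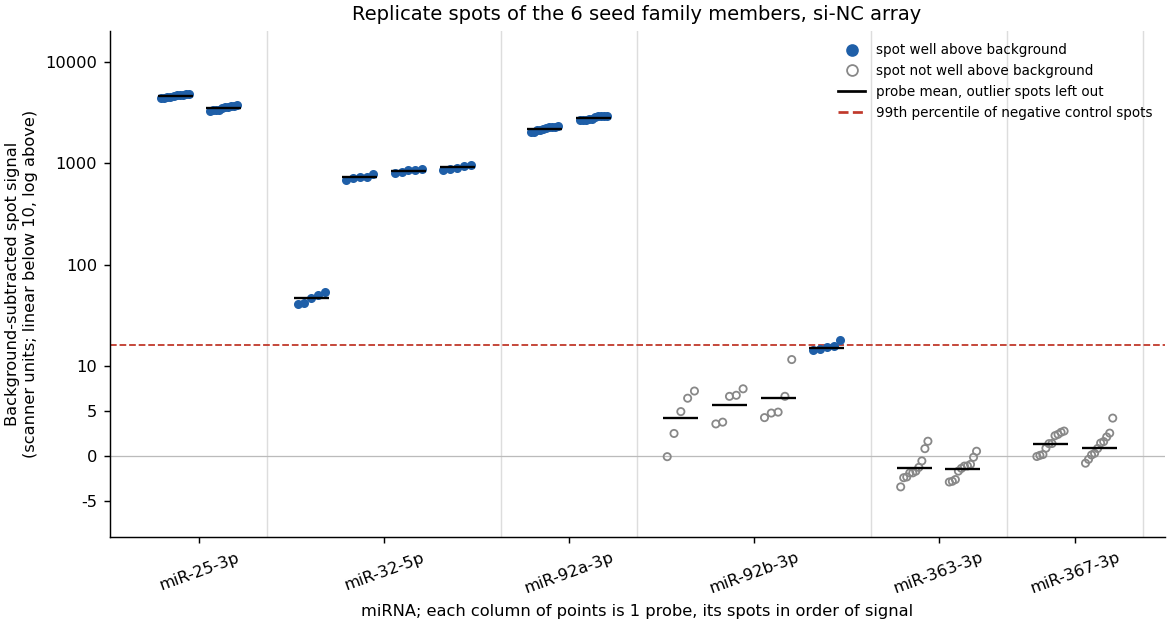
Background-subtracted signal of every replicate spot (scanner units, linear below 10 and log above) for the 16 probes of the 6 members, with filled points for spots well above background, black bars for probe means and a dashed line at the 99th percentile of negative control spots, 16.1. miR-25-3p, miR-92a-3p and miR-32-5p lie above the line on every probe, 1 probe of miR-92b-3p lies at the line, and miR-363-3p and miR-367-3p scatter around 0.

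Levels were also put on a log2 scale whose 0 is the 75th percentile of spots of detected miRNAs (a signal of 143), using only probes above background, that is with 50% or more of their spots called so. On this scale miR-25-3p lay at 4.82 ± 0.06 (SD over replicate spots about their probe mean, 20 spots) and miR-92a-3p at 4.12 ± 0.06 (20 spots). miR-32-5p lay at 1.49 ± 0.10 (20 spots) as a mean over its 4 probes, and at 2.47 when the median spot was taken, since its dim probe lowers the mean. miR-92b-3p lay at -3.24 ± 0.05 (4 spots of 1 probe). Its value depended on the processing far beyond that error, being -1.46 after normexp background correction. That correction adds an offset of 50 to every spot, above the mean of 15.1 of the miR-92b-3p probe. With the reference percentile drawn from all miRNA spots, each of the 4 levels was higher, at 7.26, 6.56, 3.93 and -0.80 in the order given.

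Next, the opposite arms were read to see which hairpins gave a signal, since an arm that is unique to a hairpin can point to its locus. The 7 family hairpins give 13 distinct mature miRNAs on the array, and 7 of these 13 were called detected, near the 44.4% of all miRNAs of the array, with 4 left under the requirement on every probe. The 7 opposite arms contributed 3 detected ones, again near that share, namely miR-32-3p, miR-92a-1-5p and miR-25-5p.

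The clearest case was miR-92a-3p, because its mature sequence is identical in both of its hairpins while the 5p arms differ. The hairpins are shown with miR-92a-3p in capitals. The first lies at chr13:91351314-91351391 (plus strand) and the second at chrX:134169538-134169612 (minus strand), both on GRCh38.p14.
miR-92a-1 hairpin: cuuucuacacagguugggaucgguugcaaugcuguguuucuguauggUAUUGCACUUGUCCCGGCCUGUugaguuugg
miR-92a-2 hairpin: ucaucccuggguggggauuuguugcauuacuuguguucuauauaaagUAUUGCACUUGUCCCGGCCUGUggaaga
The 5p arms released from them are 7 edits apart.
miR-92a-1-5p: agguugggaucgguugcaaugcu
miR-92a-2-5p: ggguggggauuuguugcauuac

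miR-92a-1-5p, the arm of the MIR17HG hairpin, was called detected at 7.61 ± 0.618. Its spots ran from -1.63 to 40.2 with a median of 23.4, and 15 of 20 were well above background. Its 4 probes had means of 3.35, 17.2, 29.8 and 36.2, of which the last 3 had every spot well above background. miR-92a-2-5p, the arm of the X-linked hairpin, was called undetected, with spots from -2.47 to 8.40, a median of -0.400 and 0 of 20 well above background. The highest of its probe signals reached 1.38 times its error. The 3p probes cannot tell the 2 sources of miR-92a-3p apart, and a hairpin can yield little of its 5p arm, so the share of each locus in the 3p signal was not measured.

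The miR-32 hairpin gave signal from both arms, with all 40 spots well above background. miR-32-3p had spots from 40.8 to 217 with a median of 52.2 and a total gene signal of 32.4 ± 2.08. For the miR-25 hairpin, miR-25-5p was called detected at 3.81 ± 0.455 on 5 of 20 spots well above background. Those 5 spots belonged to 1 probe with a mean of 31.8 ± 2.81 (SD, 5 spots), and a second probe, with a mean of 9.80, added to the total at 3.51 times its error. The other 2 probes of miR-25-5p had means of -2.14 and -2.46.

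miR-92b-5p, miR-363-5p and miR-367-5p were called undetected. With both undetected members and with miR-92a-2-5p they made 6 undetected arms, and 0 of their 120 spots were well above background. Their spots ran from -4.68 to 8.40, and 81 were below 0. Consequently, 3 of the 7 family hairpins, miR-25, miR-32 and miR-92a-1, had both arms called detected. The share of all hairpins of the array with both arms called was not computed, so this count has no background beside it. With every probe required to be above background the miR-32 hairpin alone remained, 1 of 7, and with a total gene signal of 5 or more the count was 2.

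**Figure D2:**
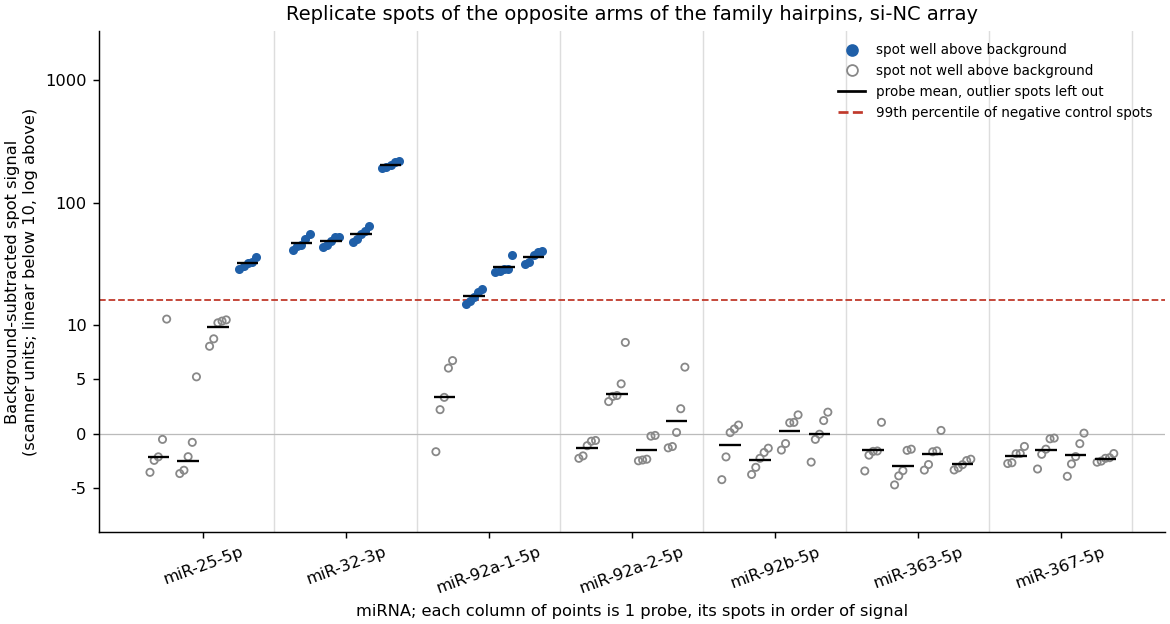
Background-subtracted signal of every replicate spot (scanner units, linear below 10 and log above) for the opposite arm of each family hairpin, drawn as for the members. Spots of miR-32-3p and of 3 probes of miR-92a-1-5p are well above background, 1 probe of miR-25-5p is, and the arms of miR-92a-2, miR-92b, miR-363 and miR-367 lie near 0.

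The neighbours of each member in its cluster were then counted, to be read against the 44.4% of all miRNAs called detected. In the MIR17HG cluster all 12 arms were called detected, including the 10 that no other locus encodes. With every probe required to be above background 9 of the 12 remained, and 10 with a total gene signal of 5 or more. In miR-106b-25 all 6 arms were called detected, although every probe was above background for 3 of them, namely miR-25-3p and the 5p arms miR-93-5p and miR-106b-5p. The background was 29.4% of all miRNAs for the rule on every probe and 33.3% for a total of 5 or more.

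In the MIR106AHG cluster, 11 arms were measured and 4 were called detected, which is no more than the share of all miRNAs, of which 2 are identical in the MIR17HG cluster (miR-19b-3p and miR-92a-3p). The 2 detected arms of its own were miR-18b-5p and miR-20b-5p, which lie 1 and 2 edits from the MIR17HG products miR-18a-5p and miR-20a-5p. A further arm of this cluster was not analysed here, so the count does not cover it in full. The 7 undetected arms, with miR-363-3p among them, had 0 of 140 spots well above background. Arms of identical sequence cannot tell the clusters apart. For the nearly identical arms the part of cross-binding was not tested.

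In the MIR302CHG cluster, 9 of 10 arms were called undetected, with 1 of their 180 spots well above background. The exception was miR-302c-5p at 6.69 ± 0.827, whose 20 spots were all well above background and ran from 14.2 to 53.0 (an outlier), with a median of 18.3. The means of its 2 probes were 16.5 ± 1.83 (SD, 10 spots) and 20.1 ± 2.03 (SD, 8 spots), close to the 99th percentile of negative control spots. miR-302a-3p, miR-302b-3p, miR-302c-3p and miR-302d-3p were all called undetected. Other markers of pluripotent cells, miR-371a-3p, miR-372-3p and miR-373-3p, were called detected, with total gene signals of at most 35.0.

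**Figure D3:**
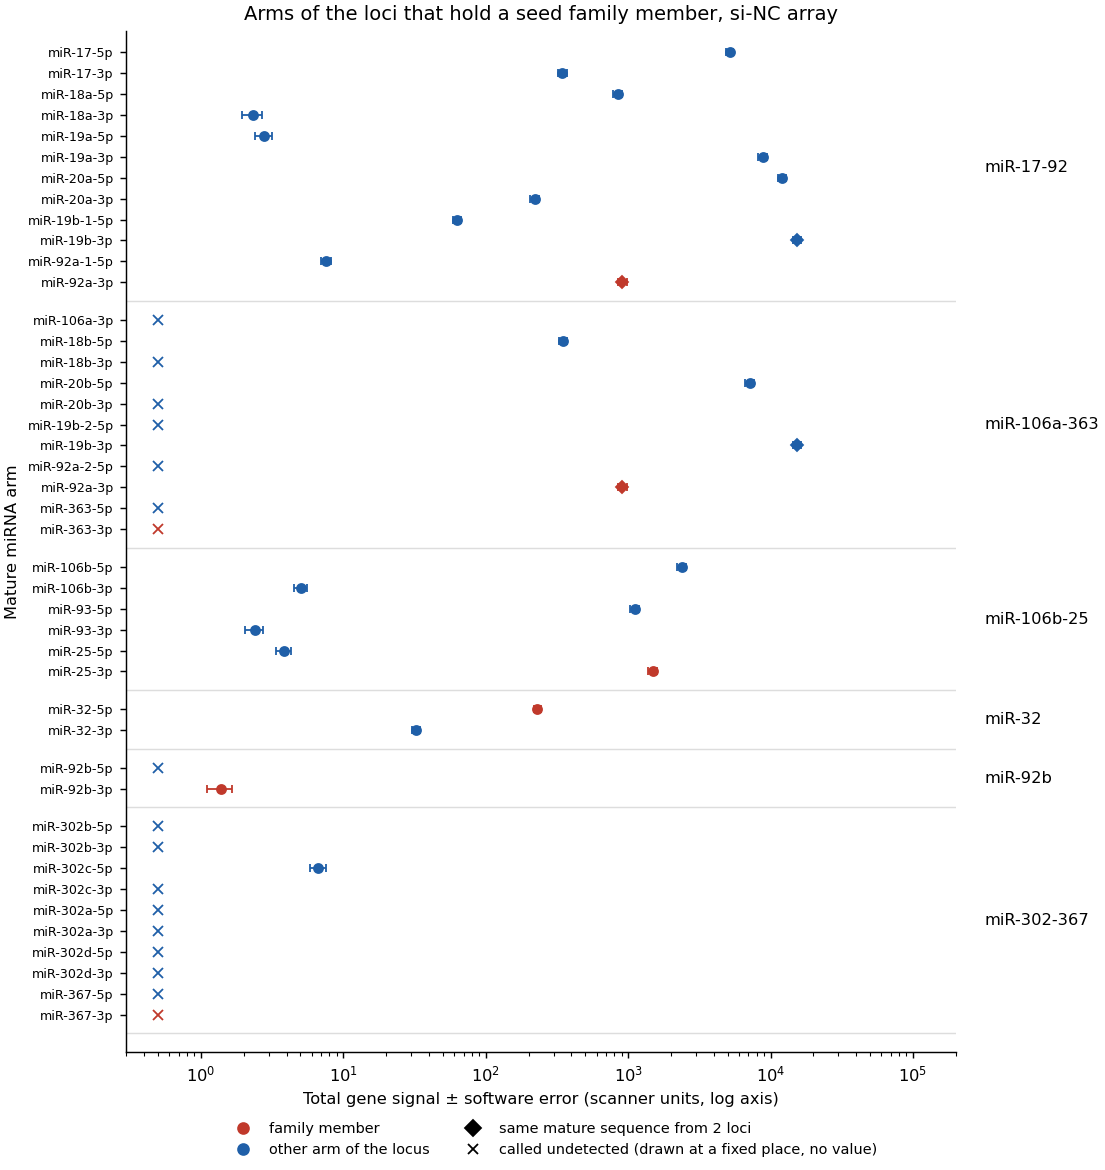
Total gene signal with the software error (scanner units, log axis) of every measured arm of the 6 loci that hold a family member, with family members in red, arms encoded by 2 loci as diamonds and undetected arms as crosses at a fixed place without a value. Loci are labelled by their first and last miRNA. All arms of the MIR17HG, miR-106b-25 and miR-32 loci are called detected, whereas the MIR106AHG cluster has 7 crosses and the MIR302CHG cluster has 9.

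Probes of the same miRNA share their target, so their signals were compared directly. miR-25-3p had a probe at 4614 ± 154 (SD, 10 spots) and a probe at 3507 ± 156 (SD, 10 spots), a gap of 0.40 ± 0.03 on the log2 scale (SE from replicate spots). For miR-92a-3p the probes lay at 2805 ± 121 and 2185 ± 99.9 (SD, 10 spots each), a gap of 0.36 ± 0.03. In both members the spots of the 2 probes did not overlap, and the gaps were 15.6 and 12.6 times their SE. These gaps were small, 1.32-fold and 1.28-fold, and lay near the median of 0.32 over the 683 detected miRNAs of the array with 2 probes above background.

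miR-32-5p had the widest gap of the family. Its 4 probes had means of 909 ± 47.3, 842 ± 31.2, 728 ± 34.5 and 46.9 ± 5.40 (SD, 5 spots each). The brightest and the dimmest differed by 4.28 ± 0.08 on the log2 scale, or 19.4-fold. After normexp background correction, which adds an offset of 50 to every spot, the log2 gap was 3.22. The gap of 4.28 ranked 10 among 801 detected miRNAs with several probes above background and 7 among the 57 with 4. A gap of 1 or more occurred in 19.6% of those 801, and in 1 of the 3 members that had a gap. Among the 57 with 4 probes above background, as miR-32-5p has, the median gap was itself 1.17. The dim probe stood apart on its own. Without it the gap of miR-32-5p was 0.32 ± 0.05, and it supplied 1.86% of the total gene signal, so that signal hardly depends on it. Its spots, from 41.3 to 54.2, were all well above background and its mean was 2.91 times the negative control percentile.

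The opposite arm of the same hairpin, miR-32-3p, showed the reverse layout, with 1 bright probe and 3 dim ones. Its probe means were 203 ± 11.7, 55.3 ± 6.69, 48.2 ± 4.16 and 47.2 ± 5.62 (SD, 5 spots each), a gap of 2.11 ± 0.09. The bright probe supplied 57.5% of the total gene signal of miR-32-3p. For miR-92a-1-5p the gap was 1.08 ± 0.10 over 3 probes above background. miR-92b-3p and miR-25-5p had 1 such probe each and gave no gap. Probe sequences were not read here, and the cause of the gaps was not tested.

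**Figure D4:**
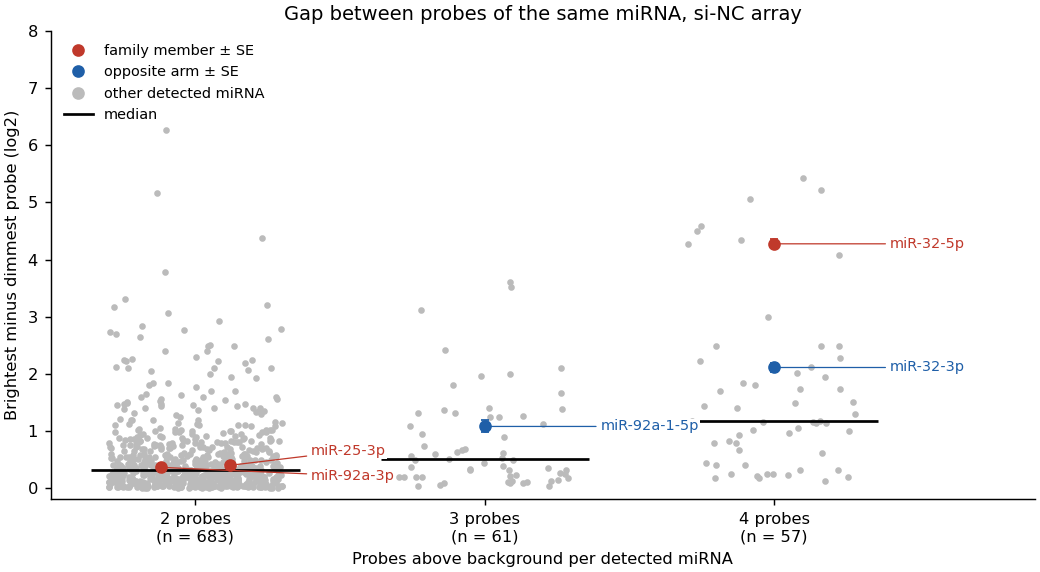
Log2 difference between the brightest and the dimmest probe of each detected miRNA with 2, 3 or 4 probes above background (grey points, n = 683, 61 and 57; black bars, medians of 0.32, 0.51 and 1.17), with family members in red and opposite arms in blue (± SE from replicate spots). miR-25-3p and miR-92a-3p lie near the median of their column, and miR-32-5p lies near the top of its own at 4.28.

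Replicate spots of a probe agreed closely for the bright members. Over the 9 member probes above background the coefficient of variation (CV, the SD over the mean) ran from 3.31% to 11.5% with a median of 4.46%. Over all 1943 such probes of the array the median was 8.74%, with quartiles of 5.12% and 14.5%, and it was 3.76% for the 208 with a mean of 1000 or more and 15.8% for the 349 with a mean under 20. The highest member CV was that of the dim miR-32-5p probe. The lowest, 3.31%, was that of the miR-92b-3p probe, and it rests on 4 spots after an outlier was removed.

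**Figure D5:**
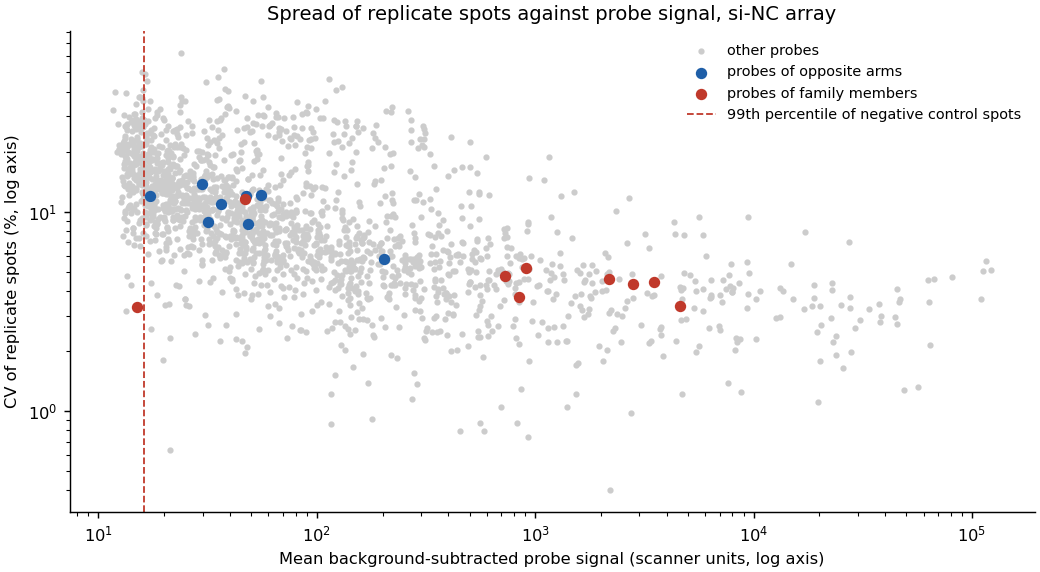
CV of replicate spots (%, log axis) against the mean probe signal (scanner units, log axis) for the 1943 probes above background, with probes of family members in red and of opposite arms in blue. The CV falls as the signal rises, and the member probes, apart from that of miR-92b-3p, lie within the cloud at their signal.

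Finally, the members were read in the log2 table that the authors deposited after quantile normalization. There miR-25-3p had a log2 value of 10.19, miR-92a-3p 9.75 and miR-32-5p 7.87, which differed from log2 of the total gene signal by -0.35, -0.09 and 0.02. miR-92b-3p had 2.3236, a value shared with miR-25-5p and with other detected miRNAs whose total gene signals were below 5. miR-363-3p and miR-367-3p had 2.3219, the lowest value of the table and the log2 of 5. On that scale a detected miR-92b-3p and the undetected members can hardly be distinguished, while miR-92a-1-5p, at 2.94, stayed above miR-92a-2-5p at 2.3219.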

How the data were processed

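MiRNA levels were measured on 1 single-colour array of the si-NC sample of DLD-1, the only sample used. Per the file headers, Feature Extraction 11.0.1.1 gave the deposited spot intensity, with background subtracted and no normalization between arrays, from a design on hg19, with detection flags and total signals. Undetected miRNAs carry a placeholder total. The sources differ on labelling, since the labels describe ligation of Cyanine 3-pCp to RNA and the methods of the study describe labelled cDNA. The authors also deposited log2 values, quantile normalized in GeneSpring. Of the value columns, 0 were left out.

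Members, lists and the rule for named miRNAs (members, opposite arms, cluster neighbours, nearest sequences) were chosen with earlier results of these data known. Spots flagged as outliers (4.51%) and control spots were left out of means. A probe counted as above background when 50% or more of its spots were well above background. Gaps are log2 ratios of probe means, with SE from replicate spots by the delta method. Alternatives covered 6 other detection rules, the reference percentile, normexp (offset 50), outliers kept, no filter on dim probes, medians and deposited values. The rule on a total of 5, the count of hairpins with both arms under other rules and the gap without the dimmest probe were added after the values had been seen. Sequences, positions and gene bounds are those of RefSeq on GRCh38.p14, matched by miRNA name, and edit distances were computed with edlib 1.3.9.post1. Python 3.11.15, numpy 2.4.6, pandas 2.3.3, matplotlib 3.10.9, R 4.3.3 and limma 3.58.1 were used. The calculations of CVs and probe gaps were tested on simulated data with every spot well above background. Detection rules, levels and probes near background were not simulated. The single array limits the precision.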

Additional observations from a re-analysis of the deposited data

How the results depend on the processing

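Over 18 results, 91 alternative values were computed, of which 69 stayed within their limits (1.5 times for counts, 1 SD of replicate spots for levels, 1 SE for gaps and 1 SD over probes for the CV) and 22 moved. The count of detected members was 3 or 4 under the 7 rules run. Under the rule on every probe, the arms over all family hairpins fell from 7 to 4, those of miR-106b-25 from 6 to 3, those of miR-92b from 1 to 0, and the hairpins with both arms detected from 3 to 1. The arms of miR-92b were also 0 under the rule on negative control spots and under a total of 5 or more. The rule on 3 times the error repeats the software flag by construction. The rule on the lowest deposited value called the same number of miRNAs, 1133, from the same array, so it adds no independent check. For the log2 levels of miR-25-3p, miR-32-5p, miR-92a-3p and miR-92b-3p, the percentile over all miRNA spots gave 7.26, 3.93, 6.56 and -0.80, through a lower reference signal of 26.3. Normexp, with its offset of 50 added to every spot, gave 4.35, 1.38, 3.67 and -1.46. The deposited values, which are per miRNA and not per spot and were set against a different reference, gave 4.36, 2.04, 3.92 and -3.50. The last of these comes from a low value shared with other detected miRNAs whose totals were below 5. Median spots moved miR-32-5p to 2.47, and outliers kept moved miR-92b-3p to -3.18. The gap of miR-32-5p was 3.22 under normexp and 0.32 without its dimmest probe. Of 13 alternative gaps, these 2 moved. Keeping outliers and dropping the filter on dim probes repeat the gaps by construction. The members with a gap had no outlier spot and every probe above background. The causes of the other shifts were not tested. With 1 array no replicate could be left out. Signal over background limits miR-92b-3p, whose total had an error of 20.02%.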
